A study of Mus musculus with 2 samples.

Results

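Tissue macrophages were the barcodes of the embryonic mouse genital tubercle that held complement C1q and macrophage receptor RNA. A barcode stands for one droplet of a single-cell RNA library, and its RNA is counted in unique molecular identifiers (UMIs), each marking 1 captured molecule. A barcode was kept if it reached 2000 UMIs and 500 genes and drew no more than 10% of its UMIs from mitochondrial genes, which left 17254 male and 18711 female barcodes. A kept barcode was called a macrophage where at least 3 of the 6 genes C1qa, C1qb, C1qc, Csf1r, Cx3cr1 and Mrc1 had a UMI and fewer than 3 UMIs came from Cpa3, a mast cell protease gene. The rule found 68 male and 43 female macrophages, 111 of 35965 kept barcodes. All other kept barcodes, 17186 male and 18668 female, served as the reference.

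The genital tubercle is the embryonic precursor of the penis and the clitoris. Both groups were wild-type C57BL/6 embryos at embryonic day 14.5 (Theiler stage 22), without a transgene or treatment, and differed in sex. Each library came from 3 embryos of one sex, pooled from 2 litters, so the spread between embryos was not measured and the 1 male and 1 female library allow no test. The dissected tubercles waited 2 hours in RPMI medium for genotyping and were then digested with collagenase XI at 1.3 mg/ml and 37 °C for 30 min and passed through a 40 µm strainer.

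Embryonic macrophages descend from yolk sac progenitors and fetal monocytes and settle in every tissue, where they engulf dying cells, recycle iron and secrete signals to their neighbours. Their survival depends on the colony stimulating factor 1 receptor (Csf1r), their identity on the transcription factor PU.1 (Spi1), and C1q, which most tissue macrophages secrete, tags debris for uptake. Chemokines such as Ccl3 and Ccl4 are made by activated macrophages and attract other leukocytes.

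The macrophages held 656814 male and 446827 female UMIs in all, with a median of 9190 (2102 to 23180) and 10104 (2605 to 23212) per barcode, against 5160 and 5234 in the reference. Their median mitochondrial share was 6.42% and 6.35%. The libraries held 130105692 and 144515562 UMIs over all barcodes. Kept barcode sequences shared by both libraries numbered 82, none of them a macrophage in either. Doublets were not removed. Xist, the RNA that silences an X chromosome, had 0 UMIs in the male and 464 in the female macrophages, while Ddx3y, Eif2s3y, Kdm5d and Uty on the Y chromosome had 12 to 30 UMIs in the male and 0 in the female macrophages, as the sex labels say. A share of 0 of 68 male or 0 of 43 female macrophages allows up to 4.41% or 6.98% with a UMI.

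Macrophages made up 0.394% of male kept barcodes (exact 95% binomial interval 0.306 to 0.499%) and 0.230% of female ones (0.166 to 0.309%), a ratio of 1.71. With a limit of 5% mitochondrial UMIs, which left 12 male and 10 female macrophages, the ratio was 1.09. All intervals given here cover counting error only. Sex, pool, dissociation and library cannot be told apart in this difference. In the same libraries, barcodes with endothelial markers numbered 198 and 131, and barcodes with at least 3 Cpa3 UMIs 24 and 11, so these smaller classes were also more numerous in the male library.

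The genes of the rule describe the choice and are no finding. C1qb, a chain of C1q, had UMIs in 66 of 68 male and 43 of 43 female macrophages, with a median of 18.5 (highest 66) and 16 (highest 51). Its level was 2031 and 1676 CPM (counts per 1000000 UMIs) summed over macrophages, against 0.409 and 0.294 CPM in the reference. Mrc1, the mannose receptor, stood at 699 and 794 CPM with a UMI in 61 and 37 macrophages, and Csf1r at 446 and 372 CPM in 59 and 40. Most macrophages were far from the limit: 53 male and 30 female ones had all 6 genes, with a median of 71.0 and 65.5 UMIs over the 6. Just inside it, 5 male and 0 female barcodes had exactly 3 of the genes, with 3 to 8 UMIs over the 6. Over Tyrobp, Fcer1g and Laptm5, leukocyte genes that the rule did not use, these 5 had 0 to 20 UMIs (median 5.00), and 4 of them had at least 1. Just outside, 8 male and 4 female barcodes had 2 of the genes, with 2 to 12 and 2 to 6 UMIs, and all 12 had a UMI of those leukocyte genes.

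Every other gene of these barcodes was compared with the reference in the contrast that the rule made, so the values below describe the macrophages and test nothing. A gene was measured where it had at least 20 macrophage UMIs, summed over both libraries or expected there from the reference level. It was called higher or lower where its CPM differed by 4-fold or more in the same direction in both libraries. Genes rare in the reference could be measured only through their macrophage UMIs. For a list of such genes, the count called higher was largely set by that limit. Of 7522 genes, 522 were called higher (6.94%) and 185 lower (2.46%). In the male library alone 7.76% were past 4-fold higher and 6.63% lower, in the female library alone 7.51% and 5.62%, and the median log2 ratio over all 7522 was -0.20 (male) and -0.22 (female). Level here means UMIs from transcript ends, summed over macrophages and divided by their total, and ratios are log2 of macrophages over reference, male first. The counting interval stands beside some of the ratios that rest on few reference UMIs. Other ratios for genes near 0 CPM in the reference are printed without it and are also uncertain.

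**Figure D1:**
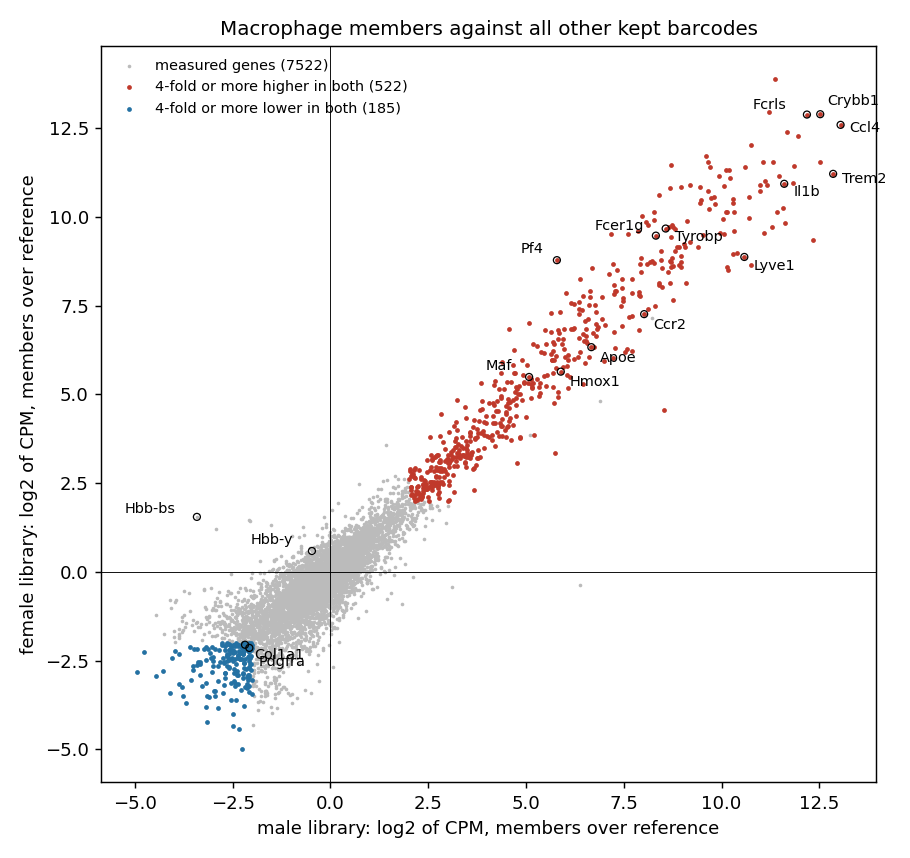
Each point is one of the 7522 measured genes, placed by its log2 ratio of CPM, macrophages over reference, in the male (x axis) and female (y axis) library. The 522 genes called higher and 185 called lower lie past 4-fold on both axes, and the named genes at the upper right reach log2 ratios above 10 in both libraries.

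Immune receptors that signal through ITAM adaptors, short cytoplasmic motifs that start a kinase cascade, stood among the genes with the highest ratios. Of 15 genes of a list of Fc receptors and ITAM signalling genes, 12 were measured. All 12 were called higher, with a median log2 ratio of 8.31 and 8.55, against 6.94% of all measured genes. The list stood at 20.4 and 14.7 CPM in the reference, and each of the 12 was measured only through its macrophage UMIs. Fcgr2b (8 and 4 UMIs) and Fcgr4 (11 and 3) had too few to be measured. Fcer1g, an adaptor of Fc receptors, had UMIs in 67 male and 42 female macrophages, with a median of 12 (0 to 36) and 14 (0 to 36). Its level was 1370 and 1294 CPM (log2 8.32 and 9.47). Tyrobp, the adaptor that carries the signal of the lipid receptor Trem2, stood at 1005 and 833 CPM (8.57 and 9.67). Trem2 itself was at 269 and 226 CPM (12.85, 11.47 to 14.75, and 11.21, 10.34 to 12.21), with 0 to 11 and 0 to 8 UMIs per macrophage. Fcrls, an Fc receptor-like gene known from microglia, was at 720.1 and 660.2 CPM (12.18 and 12.88). Mast cells share part of this machinery: the Cpa3 barcodes had 601 and 435 CPM of Fcer1g, and Cpa3 had 0 UMIs in every macrophage.

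Receptors for complement fragments were detected beside the C1q genes. All 5 measured genes of a complement list were called higher, with medians of 9.10 and 9.03, against 6.94% of all measured genes. The list stood at 14.0 and 8.96 CPM in the reference, so these 5 were measured only through their macrophage UMIs. C3ar1, the receptor for C3a, was at 254 and 215 CPM (11.07 and 11.55) with a UMI in 48 and 33 macrophages. C5ar1, the receptor for C5a, had 46 and 32 macrophage UMIs and none in either reference, which against a floor of 3 counts per library is a log2 ratio of at least 11.32 and 11.55. Itgam, a chain of complement receptor 3, was at 35.0 and 17.9 CPM (9.10 and 8.14).

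Transcription factors were called higher in part. Of 11 measured, 7 were called higher, against 6.94% of all measured genes: Spi1, Irf8, Irf5, Cebpa, Cebpb, Maf and Ikzf1. The median over the 11 was 4.91 and 5.01. Spi1 was at 231 and 273 CPM against 0.282 and 0.230 in the reference (9.68 and 10.21), with a UMI in 57 and 35 macrophages. Maf, a bZIP factor of resident macrophages, had a median of 5.50 (0 to 21) and 6 (0 to 26) UMIs and stood at 669.9 and 741 CPM (5.08 and 5.49). Zeb2, a zinc finger factor also found in mesenchyme, was at 382 and 365 CPM and was not called (1.33 and 1.31). Spic, a factor of red pulp macrophages, and Nr1h3, an oxysterol receptor, had 0 UMIs.

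A pair of neighbouring genes best known from the eye lens, Crybb1 and Cryba4, was among the 20 genes with the highest ratio, taken from the lower of both libraries. They encode the crystallins beta-B1 and beta-A4, and Crybb1 is also known as a gene of young microglia. Crybb1 had 35 and 27 UMIs in macrophages and 1 in each reference, a log2 ratio of 12.52 (9.94 to 17.86) and 12.89 (10.29 to 18.25). Cryba4 had 84 and 40 UMIs in macrophages and 5 in each reference, a ratio of 11.46 (10.18 to 13.12) and 11.14 (9.80 to 12.84). Both are protein-coding genes on mouse chromosome 5 in the mm10 build, Crybb1 at chr5:112255815-112269585 on the plus strand and Cryba4 at chr5:112246493-112252518 on the minus strand. Their start sites in RefSeq, where that of Crybb1 differs by a few bases from the coordinates above, lie 3302 bases apart and the genes point away from each other, so the stretch between them holds both promoters. A window of 240 bases upstream of each start site, without the bases next to it, is printed here because the genes were high together, 5′ to 3′ on the gene's own strand, from RefSeq on GRCm38.p6 (mm10). No annotated exon overlaps either window. Capitals mark TGCTGAC, the core of the site that MAF factors bind.
Crybb1, chr5:112255570-112255809, plus strand: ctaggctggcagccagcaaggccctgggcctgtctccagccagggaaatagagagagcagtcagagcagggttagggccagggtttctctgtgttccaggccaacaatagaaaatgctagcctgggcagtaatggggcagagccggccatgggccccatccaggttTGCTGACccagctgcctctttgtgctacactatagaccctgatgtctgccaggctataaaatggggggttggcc
Cryba4, chr5:112252529-112252768, minus strand: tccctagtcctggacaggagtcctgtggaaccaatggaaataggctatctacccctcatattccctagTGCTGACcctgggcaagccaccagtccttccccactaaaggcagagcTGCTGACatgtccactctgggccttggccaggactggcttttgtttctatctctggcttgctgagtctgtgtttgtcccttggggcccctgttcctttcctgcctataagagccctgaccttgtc
The match in Crybb1 starts 84 bases before the start site and those in Cryba4 start 182 and 135 bases before it. TGCTGAC, read on both strands, was found in 1197 of 32851 windows of this length (3.64%), and in the windows of 2 of the 15 named genes that had one, Crybb1 and Cryba4. It was 1 of 9 motifs searched, all chosen after the values were seen. The others were GAGGAAGT, GGAAGTGA, AGAGGAAGT and GAGGAAC of PU.1, TTGCGCAA and TTGCGCAAT of C/EBP factors, and a strict and a loose form of the interferon-stimulated response element of IRF factors. Some of these overlap. Among the 15, Ccl12 had GGAAGTGA, which 2.41% of windows hold, and Aif1 and Ifi207 had the loose IRF element (2.87% of windows). The other 6 motifs were in none of the 15, and 0.0487 to 3.97% of windows hold them. A match is a string of letters and shows no binding.

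Genes for engulfing and digesting other cells were high to different degrees. The lysosome list had 14 of 21 measured genes called higher (median 3.46 and 3.50), against 6.94% of all measured genes. Ctss, a protease of antigen-processing cells, was at 477 and 537 CPM (10.22 and 11.09), with a median of 4 (0 to 15) and 5 (0 to 18) UMIs. Ctsc, which activates serine proteases, was at 682 and 504 CPM (6.72 and 6.73), and Lgmn, the asparagine endopeptidase, at 1095 and 947 CPM (5.69 and 5.60). Ctsb, a cathepsin of most cells, was at 1460 and 1318 CPM against 72.4 and 71.8 in the reference (4.33 and 4.20). Cd63, a membrane protein of lysosomes in many cells, was at the reference level (-0.02 and 0.15).

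Clearance receptors were more uneven. Of 14 measured genes, 7 were called higher, against 6.94% of all measured genes. Among them was Stab1, a scavenger receptor, at 399 and 445 CPM (7.25 and 8.09). Stab1 was also at 75.6 and 73.2 CPM in the barcodes with endothelial markers, where it is known from liver and lymphatic vessels. Gas6, which bridges phosphatidylserine on dying cells to receptors of the TAM family, was at 166 and 139 CPM (5.06 and 5.33). Mertk, such a receptor, was at 35.0 and 22.4 CPM against 8.36 and 8.58 (2.07, 1.40 to 2.66, and 1.38, 0.32 to 2.27) and was not called, and Axl was near the reference (0.28 and 0.23).

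Lipid handling was led by Apoe, the apolipoprotein that macrophages load with cholesterol. Apoe was at 4994 and 3476 CPM against 49.0 and 43.1 (6.67 and 6.33), with a median of 37 (0 to 301) and 32 (1 to 93) UMIs per macrophage. In barcodes of 1 to 100 UMIs, which hold mainly free RNA, Apoe was at 73.5 and 62.4 CPM. Abca1, the cholesterol exporter, was at 183 and 121 CPM (4.14 and 3.87) and Lpl, which frees fatty acids from lipoproteins, at 215 and 273 CPM (5.96 and 6.27). In all, 9 of 13 measured lipid genes were called higher, against 6.94% of all measured genes.

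Iron and haem genes ranged from ferritin, in every macrophage, to genes found in part of them. Ferritin heavy chain, Fth1, was at 7023 and 7432 CPM (2.82 and 2.94) with 5 to 562 and 8 to 240 UMIs in every macrophage. In the list, 6 of 10 measured genes were called higher, against 6.94% of all measured genes. Hmox1, the oxygenase that opens haem, was at 606 and 577 CPM against 10.2 and 11.6 (5.89 and 5.64). A Hmox1 UMI was found in 28 male and 19 female macrophages, and the 3 highest in each library held 355 of 398 and 226 of 258 of them. Slc40a1, the iron exporter ferroportin, was at 107 and 98.5 CPM, and at 212 and 166 CPM in macrophages with Hmox1 against 16.9 and 34.9 CPM in those without. A single macrophage held 45 of the 64 male and 17 of the 36 female Slc40a1 UMIs beside Hmox1, and without it the levels were 68.1 and 89.2 CPM.

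Of 13 listed genes for presenting antigen, 4 were measured and all 4 called higher, against 6.94% of all measured genes. No class II gene had enough UMIs to be measured. B2m, the light chain of class I molecules, was at 738 and 653 CPM (3.49 and 3.57), and H2-K1 and H2-D1, closely related heavy chains whose reads may be shared, were called higher too. Of class II, H2-Aa, H2-Eb1 and their regulator Ciita had 0 UMIs in all 111 macrophages, H2-Ab1 had 1 in each library, H2-DMa, which loads class II molecules, had 9 and 5, and the invariant chain Cd74 had 8 UMIs in each library, in 6 male and 3 female macrophages. Cd86, a co-stimulatory ligand for T cells, was at 94.4 and 98.5 CPM (10.76, 9.55 to 12.26, and 12.01, 10.37 to 14.34). Among 17 listed sensors of microbes, 8 were measured and all 8 called higher, against 6.94% of all measured genes. The list stood at 17.7 and 14.0 CPM in the reference, so these 8 were measured only through their macrophage UMIs. Tlr8, Nod1 and Nod2 had 0 UMIs. Tlr2 was at 73.1 and 89.5 CPM, and Tlr7 had 19 and 20 UMIs in macrophages and none in the reference (at least 10.05 and 10.87).

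**Figure D2:**
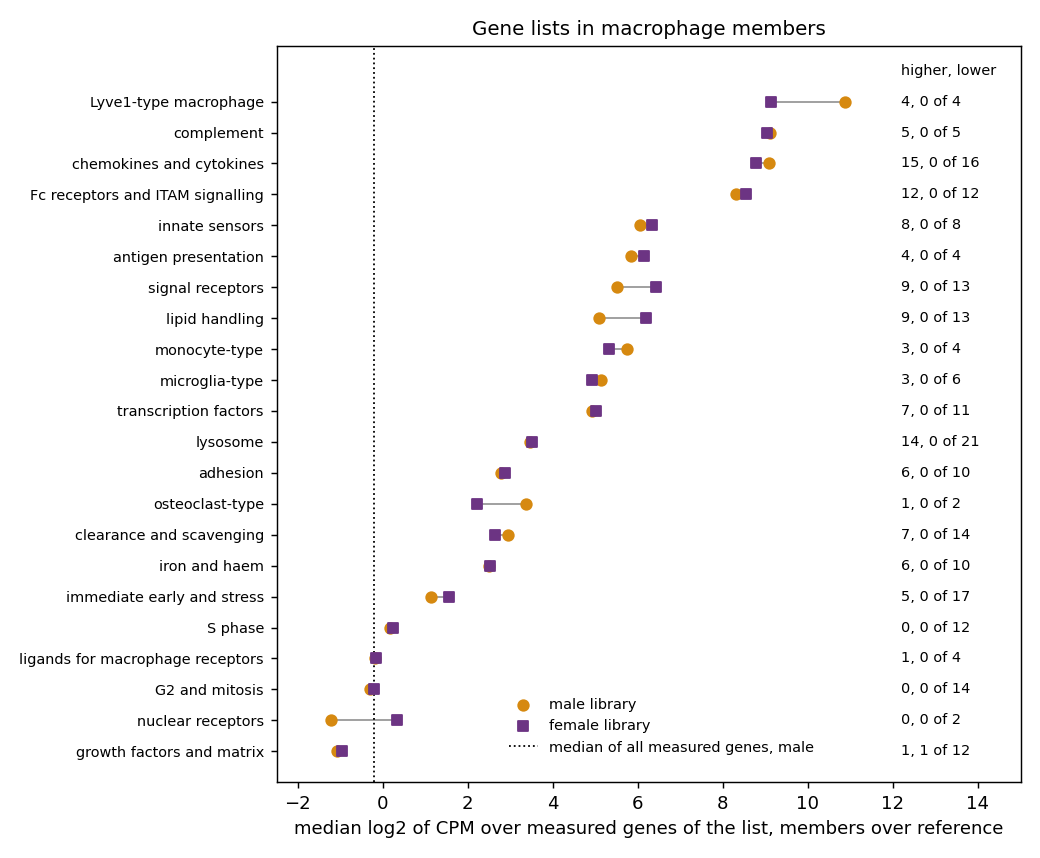
Points give the median log2 ratio of CPM, macrophages over reference, over the measured genes of each list in the male (circles) and female (squares) library, with the number of genes called higher and lower of those measured at the right. The dotted line marks the male median of all genes, -0.20, and the complement list, at 9.10 and 9.03, lies far to its right while the S phase list, at 0.17 and 0.23, lies close to it. The complement genes were measured only through their macrophage UMIs.

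Growth and matrix genes had a median log2 ratio of -1.07 and -0.96, against -0.20 and -0.22 over all genes. Of 12 measured, 1 was called higher and 1 lower, against 6.94% and 2.46% of all measured genes. The higher one was Tgfb1, a cytokine that restrains inflammation (94.4 and 101 CPM, 2.89 and 3.65). The lower one was Mmp14, a membrane collagenase of mesenchyme (25.9 and 24.6 CPM, -2.02 and -2.19). Igf1, a growth factor often credited to macrophages, was at 92.9 and 112 CPM against 68.2 and 65.5 in the reference (0.45, 0.06 to 0.81, and 0.77, 0.34 to 1.17). Of the signals that maintain macrophages, Csf1 was at 4.40 and 4.11 CPM in the reference, while Il34 had 2 and 5 UMIs over all barcodes that were neither macrophages nor of the 2 smaller classes. Among steroid hormone receptors, the oestrogen receptor Esr1 had 1 and 0 UMIs and the progesterone receptor Pgr 0. The glucocorticoid receptor Nr3c1 stood at 32.0 and 56.0 CPM against 16.0 and 13.4 in the reference, with a UMI in 14 and 18 macrophages.

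The macrophages held RNA of dividing cells at about the level of the tubercle. No gene of 12 S phase and 14 G2 and mitosis genes was called, and the summed levels were 95.9% and 111% of the reference for S phase and 87.6% and 86.8% for G2 and mitosis. Mki67, a gene of cycling cells, was at 361 and 289 CPM against 176 and 206, with a UMI in 38 and 29 macrophages. Top2a, which untangles replicated DNA, was at 323 and 374 CPM against 438 and 528. Single macrophages differed: 20 male and 13 female ones had at least 30 UMIs of the G2 and mitosis list, and 17 and 8 had 3 or fewer. These limits are UMI counts, while depth ran from 2102 to 23180 UMIs in male and 2605 to 23212 in female macrophages. The part of depth in this difference was not tested.

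Chemokine RNA was uneven across macrophages. Of 22 listed secreted signals, 16 were measured, mostly through their macrophage UMIs. Of these, 15 were called higher (median 9.08 and 8.77), against 6.94% of all measured genes. Ccl4, on chromosome 11 at chr11:83662584-83664683 next to Ccl3, was at 1146 and 882 CPM against 0.136 and 0.143 in the reference (13.04 and 12.59). Yet 35 of 68 male and 23 of 43 female macrophages had no Ccl4 UMI, and the median was 0 in both. The 17 male and 10 female macrophages with at least 10 UMIs held 723 of 753 (96.0%) and 350 of 394 (88.8%) of all Ccl4 UMIs, and the highest held 131 and 63. Thinned to 2000 UMIs each, 35.3% and 32.6% of macrophages had a Ccl4 UMI, against 0.0349% and 0.0214% of the reference.

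Other inflammatory genes were higher in the same barcodes. Ccl3, a chemokine closely related to Ccl4, was at 1194 and 1199 CPM in macrophages with a Ccl4 UMI against 55.9 and 159 CPM in those without (log2 4.42, 3.72 to 5.21, and 2.91, 2.39 to 3.48). Il1b, the gene of interleukin 1 beta, had 93 and 75 UMIs in macrophages with Ccl4 and 0 and 1 in those without. Only 13 male and 7 female macrophages with Ccl4 held any, 1 female one held 51 of the 75, and without it the female level with Ccl4 was 108 CPM in place of 313. The neutrophil attractant Cxcl2 had 118 and 100 UMIs with Ccl4 and 0 and 21 without. One male macrophage held 42 of the 118, and a female one with a single Ccl4 UMI held 55 of the 100, without which the female level with Ccl4 was 198 CPM in place of 418, against 101 CPM in those without Ccl4. Zfp36, which degrades cytokine RNA, was at 567 and 581 CPM with Ccl4 and 29.6 and 96.4 without (4.26 and 2.59), and Nfkbia, the inhibitor induced by NF-kappaB, at 326 and 305 CPM against 39.5 and 86.7. Haemoglobin and haem genes also stood higher with Ccl4, each on few barcodes. Hbb-y, the embryonic beta globin, was at 4309 and 14248 CPM with Ccl4 and 227 and 313 without, and at 190 and 194 CPM with Ccl4 once the highest macrophage of each library was left out. Hmox1, the haem oxygenase, was at 1018 and 999 CPM with Ccl4 against 128 and 91.6, and at 118 and 524 CPM without the highest macrophage. The part of these genes in the Ccl4 contrast was not tested. Ccl12 went opposite ways, at 490.5 against 65.8 CPM in the male and 66.9 against 198 CPM in the female macrophages. A single male macrophage held 84 of all 193 male Ccl12 UMIs.

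Across macrophages, the summed level of a list of immediate early and stress genes went with that of the secreted signals, with a Spearman rho of 0.65 (n = 68) and 0.57 (n = 43) and a Pearson r of 0.48 and 0.69. The points share a library and their own depth, and the correlation is a description. Of the 17 measured genes of that list, 5 were called higher than in the reference, against 6.94% of all measured genes. They were Zfp36 (4.55 and 4.87), Atf3 (5.76 and 6.09), Ier3, Klf2 and Klf6 (2.37 and 2.29). Hspa1a, a heat shock gene nearly identical to Hspa1b, was at 869 and 1135 CPM in macrophages and at 567 and 563 CPM in the reference. Within macrophages it was at 1262 and 1429 CPM with Ccl4 and 414 and 795 without. The part of these stress genes in the chemokine RNA was not tested. Median depth was 9340 UMIs with Ccl4 and 8685 without in the male library, and 11982 and 7323 in the female library.

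**Figure D3:**
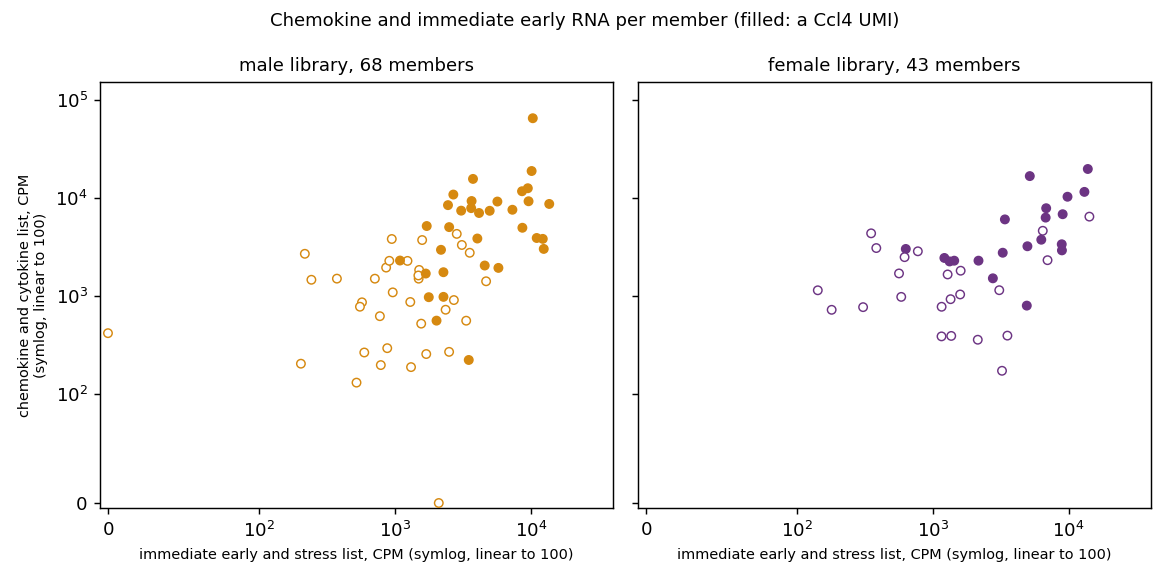
Each point is one macrophage, placed by its summed CPM of the immediate early and stress list (x axis) and of the chemokine and cytokine list (y axis), on axes linear to 100 CPM and logarithmic above, and filled where it had a Ccl4 UMI. In both libraries the filled points, 33 male and 20 female, lie mainly to the upper right, and Ccl4 itself is one of the genes on the y axis.

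**Figure D4:**
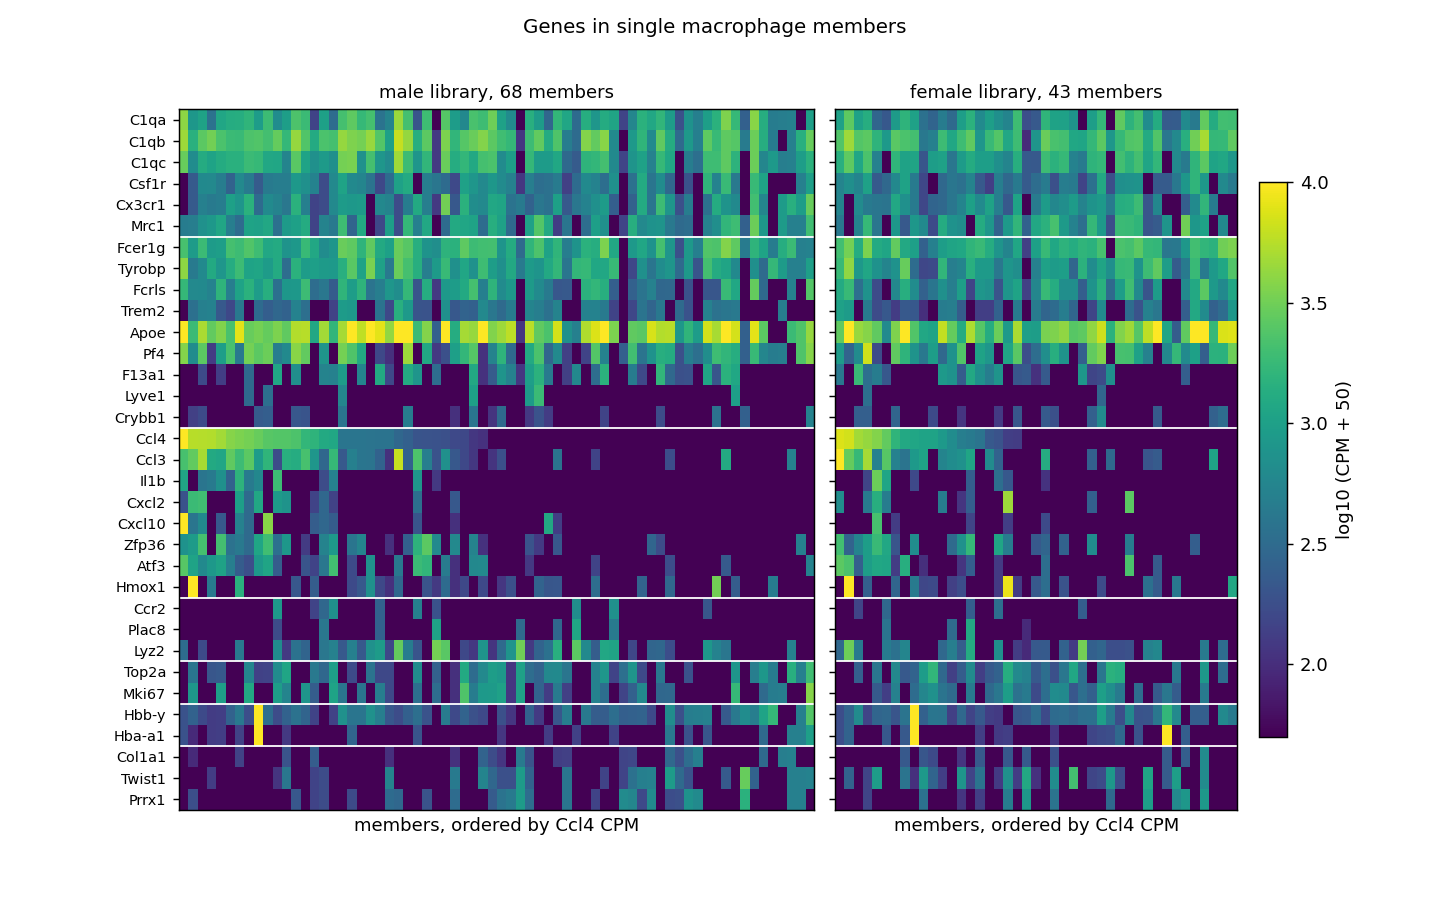
Columns are single macrophages (68 male at the left, 43 female at the right) ordered by Ccl4 CPM, rows are genes grouped by role, and colour is log10(CPM + 50). The C1q genes, Fcer1g and Apoe fill nearly every column, the Ccl3, Il1b, Zfp36 and Atf3 rows are bright mostly where Ccl4 is, and haemoglobin fills 1 male and 2 female columns.

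Genes of macrophage subsets overlapped in part. A Lyve1-type list of 9 genes stood at 18.6 and 2.69 CPM in the reference, and 4 were measured, all through their macrophage UMIs. Over all measured genes, 6.94% were called higher. Of the 4 measured genes of a Lyve1-type list, all were called higher: F13a1, clotting factor XIII, at 332 and 257 CPM (11.15 and 10.90) in 37 and 21 macrophages, Pf4, platelet factor 4, at 996 and 1032 CPM in 59 and 37, Folr2, a folate receptor, with 31 and 7 UMIs in 13 and 4, and Lyve1, the hyaluronan receptor, with 64 and 5 UMIs in 7 and 2. Lyve1 was thus rare, and 1 male macrophage held 25 of its 64 UMIs. Pf4 is also a platelet gene, and the 198 male barcodes with endothelial markers held 534 CPM of it, from 25 of them. The platelet gene Itga2b had a UMI in 20 of the 198 and Ppbp in 4. Pf4 stood at 15.3 CPM in the female barcodes with endothelial markers, and its ratio to the reference was 5.79 (male) and 8.78 (female). Timd4 had 3 and 1 UMIs and Cd163 had 0.

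A small group held monocyte genes. Ccr2, the receptor that draws monocytes from blood, had 45 and 12 UMIs in 10 male and 5 female macrophages. Plac8, a gene high in monocytes, was at 355 and 283 CPM in macrophages with Ccr2 against 12.7 and 10.2 CPM without it (log2 4.81, 3.62 to 6.22, and 4.79, 3.15 to 6.83). One female macrophage held 12 of the 16 female Plac8 UMIs beside Ccr2, and without it the level was 86.5 CPM. Lyz2, lysozyme of myeloid cells, was at 1141 and 1131 CPM with Ccr2 and 366 and 159 without, and at 669 CPM in the female library without the highest of its 5 macrophages with Ccr2. F13a1 was higher with Ccr2 too, at 575 and 884 CPM against 286 and 167. The monocyte-type list reached 4 UMIs in 9 and 5 macrophages, which held 120 of its 140 and 49 of its 62 UMIs, and it had none in 43 and 27. Ly6c2 had 1 and 0 UMIs, and Chil3 had 0.

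Some genes best known from microglia, the macrophages of the brain, were present. P2ry12, an ADP receptor, was at 91.4 and 80.6 CPM (10.12 and 11.31) in 33 and 20 macrophages, and Gpr34, a lysophospholipid receptor, at 99.0 and 89.5 CPM (11.41 and 10.14). Tmem119 and Sall1, which also mark microglia, were not higher than in the reference (-1.13 and -1.52 for Tmem119, -2.54 and -1.57 for Sall1). Of osteoclast genes, Tnfrsf11a, the receptor RANK, was at 65.5 and 51.5 CPM (8.11 and 7.41), whereas Ocstamp, Dcstamp, Oscar and Atp6v0d2 had 0 UMIs.

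Markers of other cells were checked in the same barcodes. All 7 neutrophil genes and all 6 dendritic cell genes had 0 UMIs, among them S100a8 and Flt3, as did 8 of 10 lymphocyte genes. The other two were Il7r, with 1 and 0 UMIs, and Cd79b, known from the B cell receptor, with 35 and 15 UMIs in 28 and 10 macrophages. Of 7 endothelial genes, Kdr, Emcn and Cldn5 had 0 UMIs, Egfl7 had 11 and 10, Pecam1 4 and 1, Cdh5 3 and 1, and Tie1 2 and 0. Together the 7 stood at 23.2% and 39.3% of the reference level. Mesenchyme RNA was present at 23.4% and 32.2% of the reference level over 9 genes. It was concentrated: 39 male and 23 female macrophages had 1 such UMI or none, and 5 and 6 had as much per UMI as the median reference barcode. Macrophages with mesenchyme at that level, or with 3 markers of endothelium, epithelium, muscle or glia, numbered 5 and 7, and without them 415 genes were called lower in place of 185. Macrophages with Ccl4 had less mesenchyme RNA than those without, 329 against 1250 CPM in the male and 994 against 1176 CPM in the female library, and its part in the Ccl4 contrast was not tested.

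Genes called lower were ranked by the smaller difference of both libraries, among those with at least 20 UMIs expected in the macrophages of each library. The first 12, chosen after their values were seen, included Cxcl14, a chemokine of skin and its mesenchyme. Cxcl14 was at 32.0 and 51.5 CPM in macrophages and 364 and 320.0 CPM in the reference (-3.51 and -2.64). Others were Epha3, a receptor of cell repulsion (-2.95 and -3.50), Fzd2, a Wnt receptor (-2.63 and -2.65), Vcam1, an adhesion ligand (-2.71 and -2.57), and Tac1, the precursor of substance P (-3.34 and -2.54).

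Male and female macrophages were then compared with each other, a contrast that the rule did not use. With 1 library per sex it has no replicate check, and sex cannot be told apart from the pool and the library. Of 3178 genes with at least 50 UMIs over both, 28 were at least 2-fold higher in male (0.881%) and 20 in female macrophages (0.629%), and the median log2 ratio of male over female was 0.00. The named genes below are those with the 8 highest and 8 lowest ratios among genes of at least 100 UMIs and 200 CPM, with sex-linked genes left out.

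Cxcl10, an interferon-induced chemokine, led the male side at 416 against 91.8 CPM (log2 2.18, 1.70 to 2.69), with a UMI in 14 male and 5 female macrophages. A single male macrophage held 187 of 273 UMIs (68.5%) and a single female one 36 of 41 (87.8%). Without those, the ratio was 3.51 (2.23 to 5.17), from 132 against 11.6 CPM and on few female UMIs. Ccl12, a monocyte attractant related to Ccl2, was at 294 against 128 CPM (1.20, 0.77 to 1.66). One male macrophage held 84 of its 193 UMIs, and without the highest macrophage of each library the ratio was 0.65. Its ratio in the reference, on 10 and 3 UMIs, was 1.93. Ptn, a growth factor of mesenchyme, was at 306 against 149.9 CPM (1.03), and at 989.8 and 802 CPM in the reference, and 1 male macrophage held 81 of 201 UMIs. With at most 5% mitochondrial UMIs, Ccl12 and Ptn were lower in male than in female macrophages (-1.43 and -1.63). Lyz2 was at 489 against 282 CPM (0.79, 0.49 to 1.10), and at a ratio of -0.05 with each barcode thinned to 2000 UMIs. Sf3b6, of the spliceosome, was at a ratio of 0.66. The RNAs AY036118, Gm42418 and Gm10076 were higher in male macrophages (1.90, 0.90 and 0.85) and in the male reference (1.57, 1.00 and 0.88). AY036118 and Gm42418 overlap on opposite strands of chromosome 17, and whether their reads can be told apart was not checked.

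On the female side, 6 of the 8 named genes were haemoglobins, and 3 barcodes decided them. Hbb-bs, an adult beta globin, was at 104 CPM in male and 4519 CPM in female macrophages (-5.45), and Hbb-y at 2419 and 7777 CPM (-1.68). Hba-a1 and Hba-a2 are nearly identical, as are Hbb-bs and Hbb-bt, so counts within each pair are uncertain. One male macrophage held 1849 erythroid UMIs, 16.4% of its 11263 UMIs. A female macrophage held 4784 of 18111 (26.4%), and another, with 4 of the 6 rule genes and 8 UMIs over them, 3628 of 5550 (65.4%). These 3 held 87.2% of male and 97.5% of female erythroid UMIs in macrophages, while the others had 0 to 14 and 1 to 11. Without these 3, chosen after the data were seen, Hbb-bs was at a ratio of 0.00 and Hbb-y at -0.17, and 13 genes were at least 2-fold higher in female macrophages in place of 20. The Hmox1 UMIs were not in these barcodes: the male one had 0 and the female ones 7 together.

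The remaining female-side genes were Twist1, a transcription factor of mesenchyme, at 158 CPM in male and 342 CPM in female macrophages (-1.11, -1.49 to -0.74), and Tuba1a, a tubulin, at 206 and 367 CPM (-0.84). Twist1 had a UMI in 28 male and 26 female macrophages, and its reference levels were 816 and 969 CPM. The mesenchyme list as a whole stood at 755 CPM in male and 1079 CPM in female macrophages, and its part in the Twist1 ratio was not tested. Lyve1, with 64 and 5 UMIs, was also called higher in male macrophages, on the 7 and 2 barcodes above, and Ccr2 (45 and 12 UMIs) on 10 and 5.

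**Figure D5:**
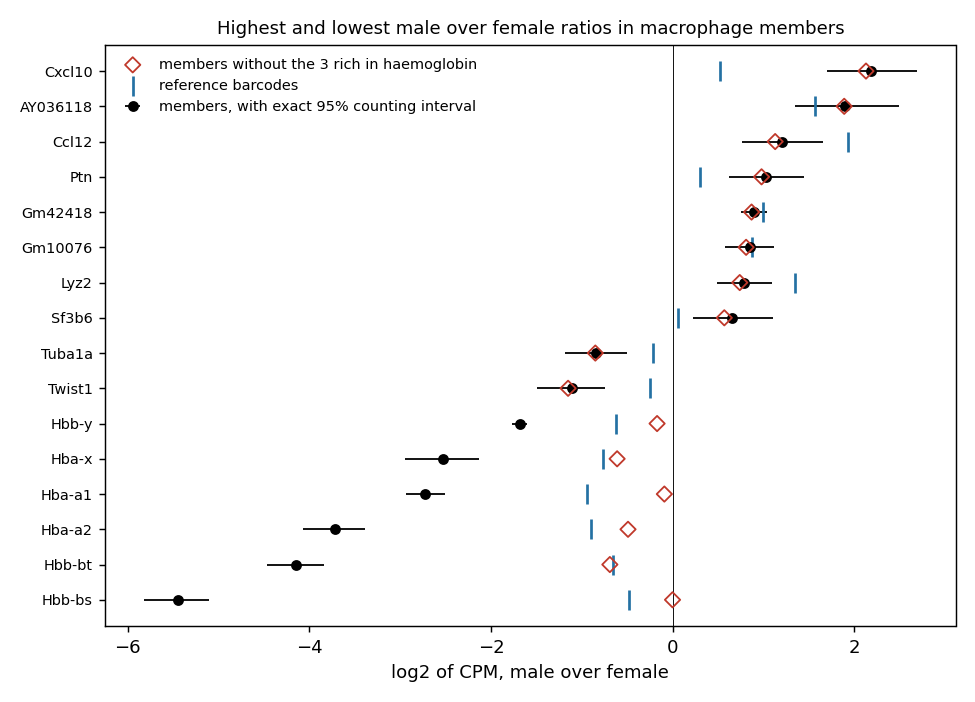
Log2 ratio of CPM, male over female, for the 16 named genes: black points with exact 95% counting intervals for all macrophages, red diamonds without the 3 rich in haemoglobin, and blue bars for the reference barcodes. The globin genes lie between -5.45 and -1.68 with those 3 and between -0.69 and 0.00 without them, while Cxcl10 is at 2.13 and Twist1 at -1.15 without them.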

How the data were processed

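The deposited files hold UMI counts per gene and barcode, made by the authors with Cell Ranger 3.1 on mm10 per the submitters' processing notes, with no normalization and no cell calling (31053 genes and 6794880 listed barcodes per library). The gene annotation used for counting is not given in the sources used here. Of the gene IDs, 30934 (99.6%) matched GENCODE M21, which gave coordinates. The members, gene lists and motifs were chosen with earlier results of these data known. UMIs were summed over macrophages or reference barcodes of a library and given per 1000000, with an exact conditional 95% interval for the ratio of 2 Poisson counts and Clopper-Pearson intervals for shares, both for counting error only. No test was made. A count of 0 was set to a floor of 3 counts per library. Genes were named by rule: the 20 with the highest ratio to the reference in the lower of both libraries (at least 50 macrophage UMIs and 10 in each library, the 6 rule genes left out), the 8 highest and 8 lowest male over female ratios (at least 100 UMIs and 200 CPM in the higher library), and genes of the fixed lists. Doublets were not removed. Some genes of the lists are not reported here. For shares across depths each barcode was thinned to 2000 UMIs. The alternatives changed the limits on UMIs, mitochondrial share, marker genes and low counts, the weighting, and single members. The calculations were tested on simulated data and run in Python 3.11.15 with numpy 2.4.6, scipy 1.17.1, pandas 2.3.3 and matplotlib 3.10.9. The promoter windows came from RefSeq (GRCm38.p6), with a window for 15 of the 20 named genes.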

Additional observations from a re-analysis of the deposited data

Results flagged for a closer look

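The summed level of the 7 haemoglobin and haem synthesis genes stood below the reference in male macrophages, at a log2 ratio of -0.97, and above it in female ones, at 0.95. The difference between the libraries was not tested, and it rests on the 3 macrophages rich in haemoglobin: without them the level was 421 CPM in male and 501 CPM in female macrophages.

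Barcodes outside the limits on depth and mitochondrial UMIs also met the marker rule. Of the barcodes with at least 1000 but under 2000 UMIs, 4 male (of 607) and 5 female (of 507) did. Of those with at least 2000 UMIs and over 10% mitochondrial UMIs, 26 male (of 922) and 15 female (of 889) did. None of these barcodes entered a comparison.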

How the results depend on the processing

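Of 1978 values computed under the alternatives, 1770 stayed within the limits set for a stable value, 204 moved and 4 changed sign. Changing the minimum UMIs of a gene does not alter its ratio, so the log2 ratios under those alternatives were stable by construction. The log2 ratios of the 20 named genes against the reference lay between 6.61 and 15.19 under every alternative run. The count of genes higher and lower than the reference was 127 and 75 with at most 5% mitochondrial UMIs (12 male and 10 female macrophages), 187 and 63 after thinning to 2000 UMIs, and 173 and 33 for genes of at least 100 UMIs. The count higher was 871 with no minimum beyond 1 UMI. The count lower was 91 with 2 or more rule genes and 415 without macrophages that held markers of another type. Genes higher in male and in female macrophages numbered 3 and 11 with at most 5% mitochondrial UMIs, 8 and 8 after thinning, 47 and 33 with each barcode weighted alike, 214 and 163 for genes of at least 20 UMIs, and 4 and 8 for genes of at least 200. The male count was 43 without macrophages that held markers of another type. The female count was 31 with 4 or more rule genes and 13 without the 3 haemoglobin-rich macrophages, an alternative added after seeing the data. The share of macrophages was 0.633% male and 0.385% female with at least 5000 UMIs, and 0.980% and 0.900% with at most 5% mitochondrial UMIs, where the ratio fell from 1.71 to 1.09. Signs changed for Ccl12 (-1.43) and Ptn (-1.63) with at most 5% mitochondrial UMIs, for Lyz2 (-0.05) after thinning, and Hbb-bs reached 0.00 without the haemoglobin-rich macrophages. Fewer genes or barcodes enter under the stricter limits, and the cause of the other shifts was not tested. No paired analysis was possible because each sex has 1 library. With 68 and 43 macrophages, genes of few UMIs could not be compared at this depth. The limit taken for a count of 0, up to 3 counts, is 4.57 CPM over male and 6.71 CPM over female macrophages.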

Other observations

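Receptors for inflammatory and immune signals were measured for 13 of 16 listed genes, and 9 were 4-fold or more higher in macrophages than in the reference in both libraries. Over all measured genes, 6.94% were. Ccr1, a receptor for Ccl3, was at 95.9 and 94.0 CPM, with a UMI in 36 male and 21 female macrophages. Il10rb, a chain of the receptor for interleukin 10, was at 71.6 and 73.9 CPM, while Il10 itself had 0 UMIs. Ifngr1, of the interferon gamma receptor, was at 146 and 87.3 CPM against 17.8 and 15.9 CPM in the reference.

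Among signals made by few macrophages, Ccl24, an eosinophil attractant, had 23 and 12 UMIs in 13 and 8 macrophages and none in the reference. Tnf, the tumour necrosis factor gene, had 32 and 9 UMIs in 11 and 5 macrophages, and all 32 male UMIs were in macrophages with Ccl4. Gpnmb, a lysosomal glycoprotein of foamy macrophages, had 18 and 32 UMIs in 5 and 6 macrophages. Spp1, the matrix protein osteopontin, had 10 and 11 UMIs in 6 and 4 macrophages.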
